A study of Caenorhabditis elegans with 6 samples.

Results

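Wild-type *C. elegans* larvae that had hatched without food were compared with gravid hermaphrodites of the same strain, as poly(A)+ RNA counted per gene over coding sequence. The members are the 14521 genes, of 20447 in the table, with at least 50 counts summed over 3 libraries. These libraries were 2 of starved L1 larvae and 1 of gravid adults, of 6 in the series. At the edge of this rule, 37 genes held exactly 50 counts and were kept, and 35 genes held 49 counts and were not. All 3 libraries came from strain N2, the laboratory wild type, grown at 20 °C and synchronized by bleaching, which kills adults and leaves their eggs. Larvae hatched overnight without food, and adults were taken after about 68 h with food. Libraries started from 3 µg total RNA of larvae and from 10 µg of adults. The 2 larval libraries were described as independent biological replicates, whereas the adult library had no replicate. Stage, feeding and the amount of input RNA therefore cannot be told apart. The other 3 libraries of the series, from *ebax-1(tm2321)* mutants at both stages, entered the fit but not the comparison. Mutant larvae were strain CZ9907 and the mutant adult was strain FX02321, so a difference between the mutant stages also crosses strains.

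L1 is the larva that hatches from the egg. Without food it stops developing, keeps its neurons, muscles and gut largely as built in the embryo, and holds 2 germ line precursor cells that do not divide. A gravid hermaphrodite has a large syncytial germ line in mitosis and meiosis, oocytes loaded with yolk, stored sperm and embryos in the uterus. Its intestine makes yolk, and its cuticle is the adult one, laid down at the last molt. Most neurons and muscle cells present at hatching persist into the adult, while the animal grows many-fold in volume.

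The larval libraries held 13425500 and 12555317 counts and the adult library held 21328335. Levels are given as raw counts in the order larva replicate 1, larva replicate 2, adult, or as CPM, which are counts per 1000000 counts after TMM scaling between libraries, with the mean and SD of the 2 larval libraries. The larval libraries differed by more than sampling noise (chi-square per degree of freedom 3.79) and were counted as separate samples. Their log2 ratio was taken after a small constant was added to each CPM, which shrinks ratios at low levels. Its median absolute value was 0.131 per gene, its 95th percentile was 0.583, and 80 genes differed by more than 2-fold. Spread at low counts is thus understated: *inx-9*, at 8 and 2 counts, is not among the 80. A gene was called when its edgeR quasi-likelihood adjusted p was below 0.05 and its change was at least 4-fold. All log2 fold changes are adult over L1. The lone adult library was assumed to vary like the larval pairs, so errors and p-values do not hold the spread between adult cultures, and intervals and floors cover counting error only.

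*lin-14* and *col-19* went with the stage labels, but not every gene chosen as a marker did. The gene whose loss the series examines, *ebax-1*, was measured at 970, 873 and 1051 counts, and its level was 79.1 ± 1.57 CPM in larvae (SD, n = 2) and 44.7 CPM in the adult library, under the 4-fold line. *lin-14*, the timing gene that specifies the L1 program, was at 4858, 4711 and 873 counts. The adult cuticle collagen *col-19* was at 3, 5 and 16667 counts. By contrast, the larval marker *lin-28* (2476, 2649 and 2335 counts) and the sperm marker *spe-9* (8, 12 and 42) were under 4-fold. The embryo marker *med-2* (39, 43 and 1) was higher in larvae. Of the genes chosen to mark embryos in the uterus, some had few counts in every library. The endoderm factors *end-1* (6, 3 and 10 counts) and *end-3* (1, 3 and 15) and the T-box genes *tbx-37* (1, 1 and 3) and *tbx-38* (0, 0 and 2) were below the count minimum, and the zygotic list below held others that passed it.

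The difference between the stages was broad. Of 14521 genes, 3231 were higher in adults, 22.3% of those tested, and 2660 were higher in larvae, 18.3% of those tested. Every gene that changed at least 4-fold also passed the adjusted p, so the fold decided the calls. For all 5891 called genes the adult library lay outside both larval libraries, which was also true of 97.2% of all genes. The median absolute log2 fold change was 1.63, against 0.131 between the larval libraries. The larval ratio was damped by a larger added constant than the fold change, so the 2 values are not strictly alike. The changes were lopsided in size. At least 16-fold, 1387 genes were higher in adults and 245 in larvae. Genes higher in adults went from a median of 1.48 CPM in larvae to 24.4 CPM, whereas genes higher in larvae went from 19.2 to 2.51 CPM. In both larval libraries 413 genes were at 0 counts, 35 of them with 1000 or more counts in adults, and only 14 genes were at 0 in the adult library. A gene that is high at 1 stage passes the count minimum through that stage alone, so the counts below describe the genes measured and not all genes of a family. Each count is to be read beside the 22.3% and 18.3% of all genes. A list near or below these shares does not stand out by its calls.

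**Figure D1:**
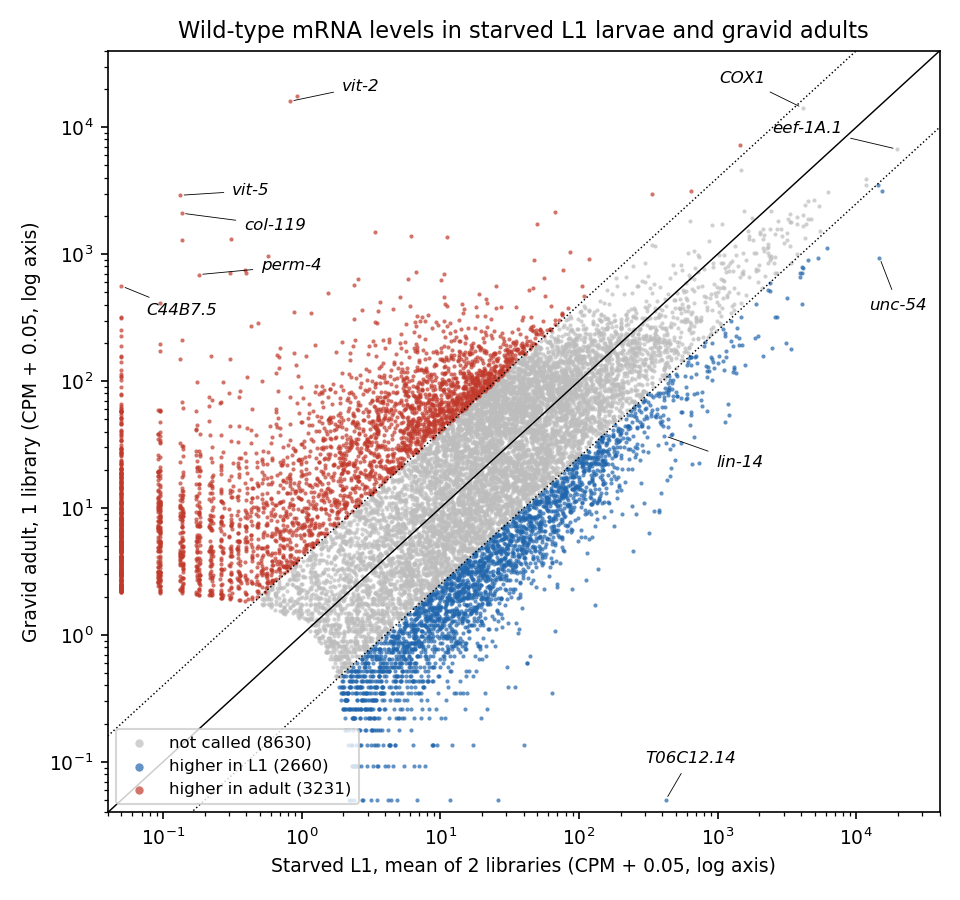
Level of each of 14521 genes in starved L1 larvae (x axis, mean of 2 libraries) and in gravid adults (y axis, 1 library), in CPM with 0.05 added so that 0 can be drawn, on log axes. The solid line marks equal levels and the dotted lines mark 4-fold. Red points are the 3231 genes higher in adults, whose cloud reaches the left edge (0 counts in larvae), and blue points are the 2660 genes higher in larvae.

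Yolk genes held the largest differences. Vitellogenins are lipid-carrying yolk proteins that the adult intestine secretes and oocytes take up. *vit-2* (chromosome X, 5101042 to 5106169, plus strand, WBcel235) went from 10 and 8 counts to 375351, and *vit-6* (chromosome IV, 8261157 to 8266459, plus strand) from 7 and 13 counts to 415014. Both were at or near 1 CPM in larvae, whereas in adults they stood at 15968 and 17656 CPM. Their log2 fold changes were both 14.21, with SE 0.181 for *vit-2* and 0.21 for *vit-6* (edgeR adjusted p = 4.76e-25 and 6.68e-24). *vit-5* was at 2, 0 and 68360 counts, a ratio of 33864 with a 95% exact binomial interval of 9374 to 279634. The other vitellogenins were lower: *vit-1* at 7, 12 and 8300 counts, *vit-3* at 7, 12 and 3934, and *vit-4* at 0, 0 and 1200, which is at least 396-fold higher in adults against a floor of 3 counts over both larval libraries. *vit-3*, *vit-4* and *vit-5* are near-identical copies, and with only unique alignments counted their levels are uncertain. The yolk receptor of oocytes, *rme-2*, went from 45 and 40 counts to 9874 (log2 fold change 6.82, SE 0.139). The 7 genes of yolk and its uptake, all called, took 4.14% of adult counts and at most 0.000677% of larval counts. Per kb of coding sequence, the adult level of *vit-6* was 3565 CPM and that of *vit-2* was 3300 CPM, against 4830 CPM for the translation elongation factor *eef-1A.1*. In whole animals, more cells of a type and more RNA per cell cannot be told apart, here or in the groups that follow. Levels are relative to the library, so amounts per animal or per cell were not measured.

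Eggshell and oocyte genes rose with yolk. The shell is built at fertilization from proteins, chitin and proteoglycans that the oocyte makes in advance. Of 17 genes for the eggshell and for egg activation, 15 were higher in adults and 0 in larvae, with a median log2 fold change of 5.98 against 0.028 over all genes. The permeability barrier gene *perm-4* went from 1 and 2 counts to 16209, a ratio of 5353 (95% exact interval 1831 to 25960), and the chitin-binding proteoglycan gene *cpg-2* from 46 and 32 to 34832. The chitin synthase of the shell, *chs-1*, was at 26, 28 and 13547 counts (log2 change 7.91, SE 0.172, edgeR adjusted p = 2.88e-21). The eggshell organizer *cbd-1* was at 80, 62 and 32609 counts, and the oocyte surface gene *egg-1*, which sperm need to enter, was at 13, 13 and 8020 counts. In each of these the adult library was far above both larval libraries. The exceptions were the kinase gene *mbk-2* (log2 fold change 0.02) and *cpg-7* (0.17), named after their values were seen.

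Maternal RNA-binding and polarity genes followed, with 31 of 41 higher in adults, 0 in larvae and a median of 4.05. The leading members hold oocyte mRNAs in check. The PUF-family repressors *puf-11* (21, 23 and 4770 counts) and *puf-5* (39, 38 and 6823) and the translational repressor *gld-1* (53, 52 and 8666) each rose by 6.33 or more on the log2 scale. *gld-1* itself changed by 6.33 (SE 0.132, edgeR adjusted p = 1.34e-21). The oocyte maturation factors *oma-1* (84, 66 and 4307 counts) and *oma-2* (70, 91 and 5345) changed less, at 4.82 and 5.02. The 4 members below 0 were not called, the lowest being the polarity kinase *par-1* at -1.43 and the translational repressor *lin-41* at -0.99, both also used outside the germ line.

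Sperm genes were nearly silent in larvae. Hermaphrodites make sperm before adulthood and store them, and the major sperm protein (MSP) both drives sperm crawling and signals to oocytes. Of 83 sperm genes, 65 were tested, of which 60 were higher in adults and 0 in larvae. In 38 of the 65 both larval libraries were at 0 counts, so the fitted median of 6.57 depends on the prior count, and with those genes at their bound it was 5.89. *msp-81* was at 0, 0 and 680 counts, at least 225-fold higher in adults, *nspd-1* at 0, 0 and 1137 (at least 375-fold) and the paternal-effect gene *spe-11* at 0, 0 and 906 (at least 299-fold). These levels were modest beside yolk or eggshell genes: all sperm genes together took 0.112% of adult counts. MSP genes are near-identical, so which copies carried the reads is uncertain. The 5 genes not called were *spe-9*, *spe-10*, *spe-15*, *spe-39* and *spe-49*, with log2 fold changes of 0.996 to 1.70. *spe-9*, which sperm need to fertilize, was at 8, 12 and 42 counts.

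The germ line itself, its meiosis and its divisions were represented mostly in adults. P granules are the RNA-rich bodies of germ cells. Of 32 genes for P granules and germ line maintenance, 23 were higher in adults and 0 in larvae (median 3.35). *pgl-1*, which builds P granules, was at 115, 132 and 7037 counts, the helicase *glh-1* at 172, 156 and 6078, and the nuclear Argonaute *hrde-1*, which carries silencing between generations, at 126, 124 and 9565. Unlike sperm genes, these were readily counted in larvae. The larval level of *pgl-1* was 10.7 ± 1.61 CPM and that of *glh-1* was 14.1 ± 0.202 CPM (SD, n = 2). Among meiotic genes, 37 of 40 were higher in adults and 0 in larvae (median 4.0). The synaptonemal complex gene *syp-4* was at 20, 30 and 3469 counts and the chromosome axis genes *htp-1* at 20, 13 and 1982 and *him-3* at 21, 35 and 2481. The largest change was that of *lab-1*, which protects cohesion between meiotic chromosomes, at 1, 4 and 2330 counts (log2 change 8.44, SE 0.269, edgeR adjusted p = 1.19e-18). The 3 genes not called were *him-17*, *him-19* and *zyg-12*.

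Genes of the cell cycle and DNA replication were higher in adults in 55 of 68 cases and in larvae in 0 (median 3.26). The mitotic cyclin *cyb-2.1* was at 26, 26 and 1928 counts, the replication origin subunit *orc-1* at 70, 61 and 4032, and the kinase *wee-1.3*, which holds oocytes before meiotic division, at 79, 77 and 4349. For *orc-1* the level went from 5.62 ± 0.239 CPM (SD, n = 2) to 172 CPM, 4.91 on the log2 scale (SE 0.131, edgeR adjusted p = 1.17e-19). Together these 68 genes took 0.111% and 0.114% of larval counts and 1.05% of adult counts.

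**Figure D2:**
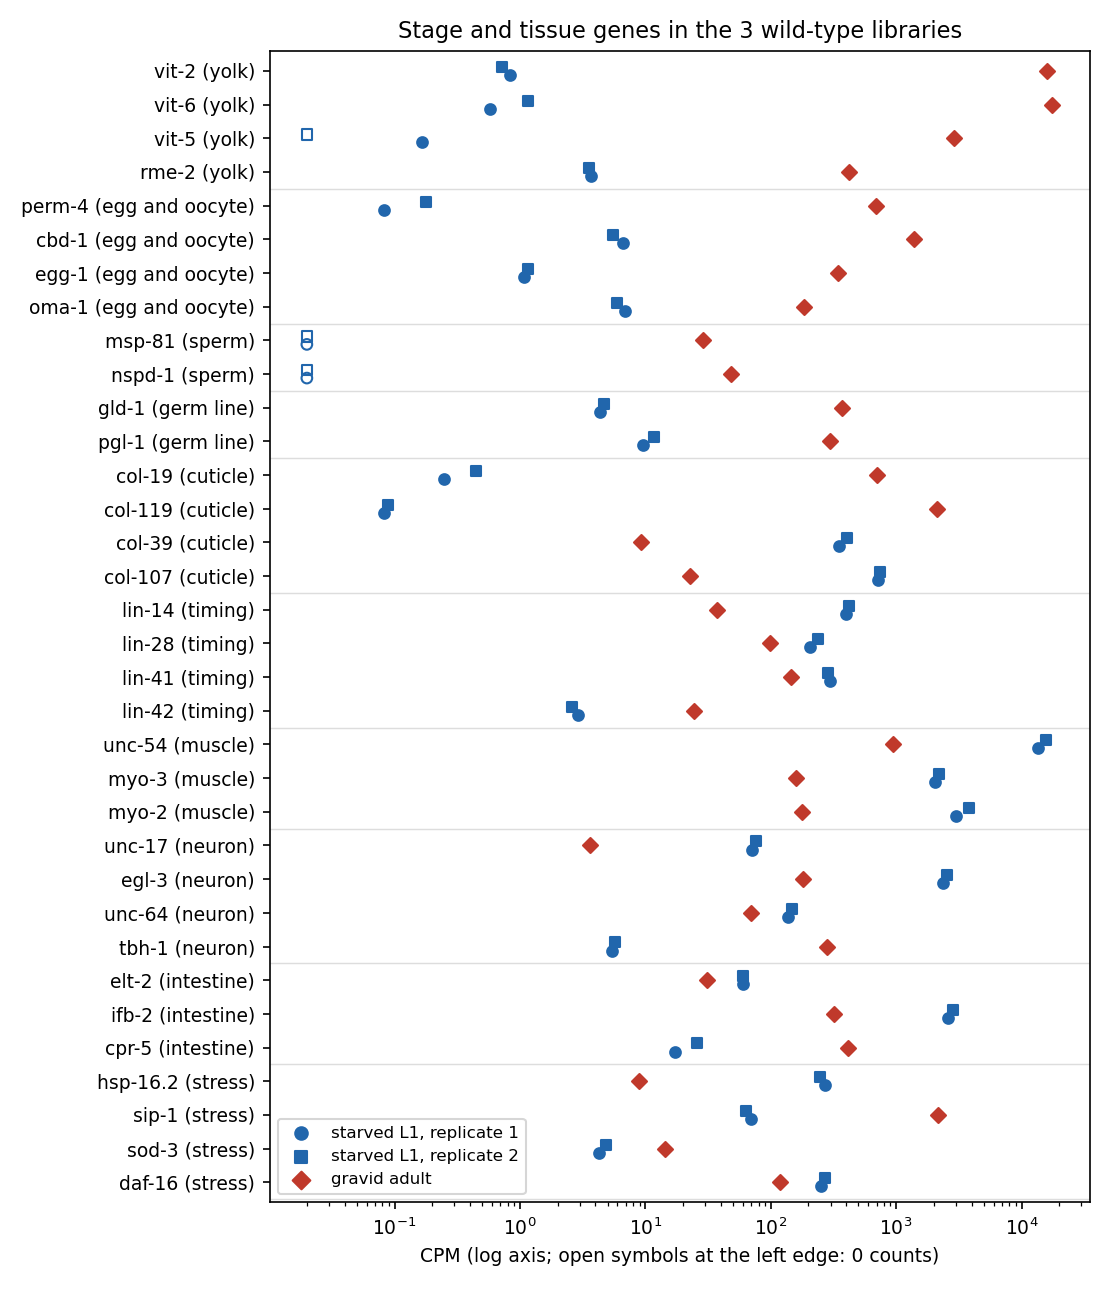
Level of stage and tissue genes in each wild-type library, in CPM on a log axis. Blue circles and squares are the 2 starved L1 libraries, red diamonds the gravid adult library, and open symbols at the left edge stand for 0 counts. The larval libraries lie close together for nearly all genes, yolk, egg and sperm genes are far to the right in adults, and muscle and most neuronal genes are to the right in larvae.

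Cuticle collagens changed in both directions and over the widest range. The cuticle is remade at each molt from a different set of collagens, secreted by the hypodermis. Of 175 genes, 144 were tested, and 72 were higher in adults, 25 in larvae and 47 were not called. The upper extreme was *col-119* (chromosome IV, 8978926 to 8979795, minus strand), at 1, 1 and 49400 counts, a ratio of 24472 with a 95% exact interval of 6774 to 202078. *col-20* was at 1, 1 and 30442 counts, *col-140* at 2, 4 and 30746, *col-178* at 0, 1 and 9655 and *col-179* at 0, 0 and 5291. Their larval counts were thus at or next to none, whereas the collagens higher in larvae were still measured in adults. *col-107* went from 8672 and 8382 counts to 535 (log2 change -5.0, SE 0.146, edgeR adjusted p = 5.65e-19), and *col-39* from 4274 and 4546 to 217 (-5.35, SE 0.154). *col-147*, at 1129, 1141 and 128 counts, and *col-91*, at 332, 318 and 31, had log2 fold changes of -4.15 and -4.33. Between the mutant stages the same 2 genes gave -1.09 and -0.21 and were not called. Some collagen genes known from mutants with altered body shape had been chosen as hypodermis markers. Of these, *rol-6* was at 6, 3 and 969 counts, *dpy-13* at 10, 15 and 1551 and *dpy-7* at 66, 39 and 621, each higher in adults. Other body-shape collagens were not described separately.

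**Figure D3:**
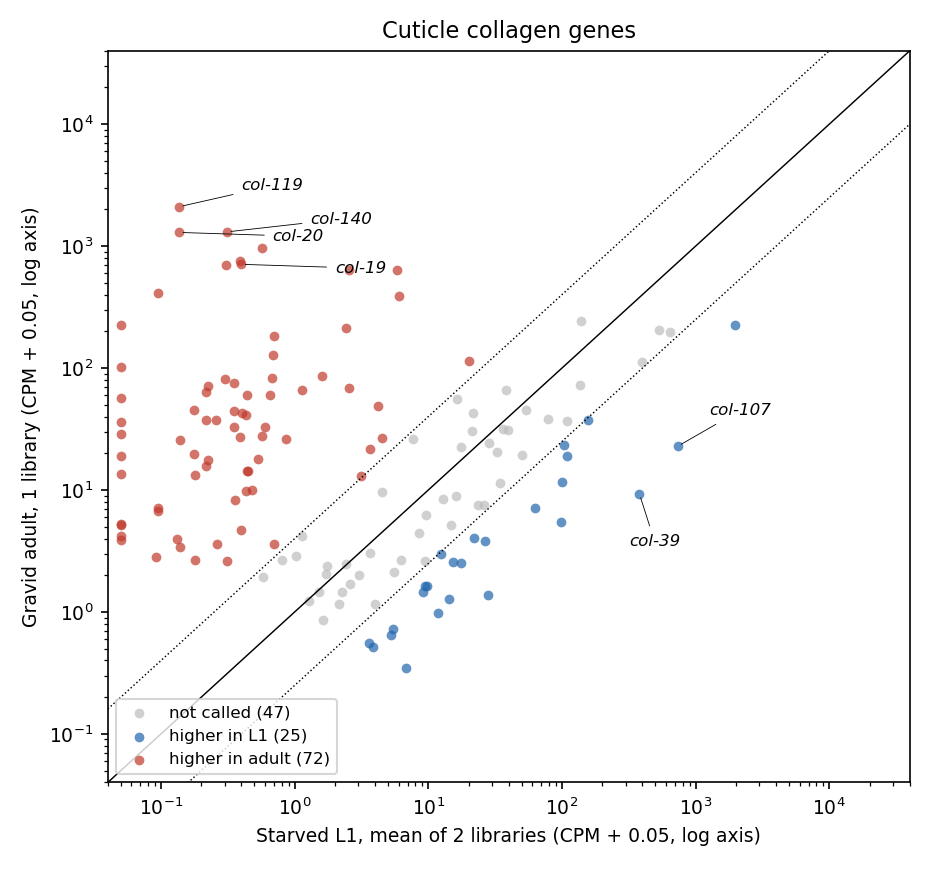
Cuticle collagen genes, with the level in starved L1 larvae on the x axis (mean of 2 libraries) and in the gravid adult library on the y axis, in CPM with 0.05 added, on log axes. The 72 genes higher in adults (red) lie mostly below 1 CPM in larvae, the 25 genes higher in larvae (blue) form a band below the lower 4-fold line, and gray points were not called.

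Genes for molting and the hedgehog-related family, small secreted proteins of cuticle-forming cells and their Patched-related membrane proteins, were mixed. Of 77 tested (98 in the table), 18 were higher in adults and 10 in larvae (median 0.57). The hedgehog-related gene *grl-23* was at 0, 1 and 1398 counts and the molting metalloprotease *nas-37* at 10, 8 and 1752, whereas *grl-4* was at 1259, 1182 and 263 counts and the Patched-related *ptr-8* at 1337, 1104 and 322.

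Developmental timing genes, which set the order of larval cell fates, lay mostly below 0, in 16 of 20, though few passed 4-fold. Of 20, 5 were higher in larvae and 2 in adults, with a median of -1.48. *lin-14* (chromosome X, 11465560 to 11485871, plus strand) fell from 411 ± 13.6 CPM (SD, n = 2) to 37.1 CPM (-3.47, SE 0.127, adjusted p by edgeR 3.42e-17). *lin-28*, the RNA-binding protein that acts with it early, was at 2476, 2649 and 2335 counts, with a log2 fold change of -1.15. *hbl-1*, the hunchback-like factor, was at 687, 628 and 464 counts (-1.51), and *lin-41* at 3566, 3176 and 3414 (-0.99). None of these 3 reached 4-fold. The period homolog *lin-42*, which cycles with the molts, went the other way, from 35 and 29 counts to 579 (3.13, SE 0.22), as did *mab-10*, a cofactor of the adult-promoting LIN-29, at 5, 2 and 526 (5.92). The Argonaute *alg-1*, which loads microRNAs, was the second largest fall at 4720, 4562 and 1148 counts (-3.03, SE 0.124), followed by *sea-2* (-2.75), *lin-66* (-2.73) and *apl-1* (-2.07). *apl-1* was under 4-fold in 4 alternatives, among them DESeq2 (-1.92) and total-count scaling (-1.77).

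Genes tied to starvation and to DAF-16, the FOXO factor that insulin signaling restrains, did not move as a block. Of 32 tested (37 in the table), 9 were higher in larvae, 2 in adults and 21 were not called (median -1.15). *daf-16* itself was at 3034, 3007 and 2804 counts (-1.12), under the 4-fold line. Its well-known target *sod-3*, a manganese superoxide dismutase, was at 52, 54 and 335 counts, so the adult level was the higher one (log2 fold change 1.63, not called). The small heat shock genes *hsp-16.2* (3295, 2747 and 208 counts) and *hsp-16.41* (3133, 2506 and 241) were the largest falls, at -4.86 and -4.55. Between the mutant stages they gave -1.63 and -1.65 and were not called. The mitophagy receptor *dct-1* was at 2115, 2015 and 492 counts and *zip-10*, a bZIP factor, at 552, 650 and 116. In the opposite direction, *sip-1*, an embryonic member of the small heat shock family, went from 838 and 716 counts to 50782 (5.02, SE 0.116, edgeR adjusted p = 9.48e-21), and the metallothionein *mtl-1* from 841 and 733 to 6655 (2.07).

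Of 27 insulin-like peptide and pathway genes tested (45 in the table), 7 were higher in larvae and 5 in adults. These shares were 25.9% and 18.5%, against 18.3% and 22.3% of all genes. The peptides higher in larvae were *ins-30*, *ins-35*, *ins-17*, *ins-1*, *ins-18*, *ins-14* and *daf-28*. *ins-17* was at 910, 824 and 285 counts (-2.61, SE 0.151) and *ins-18* at 257, 215 and 85. Those higher in adults were *ins-37*, *ins-7*, *ins-33* and *ins-6*, the last at 7, 8 and 73 counts, and the lipid phosphatase *daf-18*, which opposes insulin signaling. *ins-7* was at 1, 8 and 238 counts, and its larval libraries were thus far apart (0.399 ± 0.447 CPM, SD, n = 2). *daf-18*, by contrast, was measured tightly, at 686, 614 and 15152 counts (3.53, SE 0.107, edgeR adjusted p = 1.16e-18). The receptor *daf-2* was at 5732, 5584 and 4934 counts and was not called.

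In central metabolism, gene copies for the same enzyme, glyceraldehyde-3-phosphate dehydrogenase, changed in opposite directions. *gpd-3* went from 12981 and 13313 counts to 5622 (-2.24, SE 0.124), whereas *gpd-1* rose from 51 and 43 to 1442 (3.90, SE 0.182) and *gpd-4* from 30 and 20 to 519. Copies of this gene are very alike, and their shares of the reads are uncertain. Of 35 genes for the glyoxylate cycle, gluconeogenesis, glycolysis and trehalose, 4 were higher in adults (*gpd-1*, *gpd-4*, *pck-3* and *pfk-1.2*) and 3 in larvae (*gpd-3*, the aldolase *aldo-1* at 4595, 4159 and 1781 counts, and the lactate dehydrogenase *ldh-1* at 1393, 1269 and 584). With total-count scaling *gpd-3* (-1.94) and *ldh-1* (-1.90) were under 4-fold. Both shares of the list, 11.4% and 8.57%, were below the 22.3% and 18.3% of all genes.

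In lipid metabolism, 7 of 43 genes for fatty acid breakdown were higher in adults and 2 in larvae (median 0.79). Both shares, 16.3% and 4.65%, were below the 22.3% and 18.3% of all genes. *acdh-1*, an acyl-CoA dehydrogenase known as a reporter of bacterial diet, was at 1038, 743 and 17619 counts (3.30, SE 0.121, edgeR adjusted p = 3.55e-17). The lysosomal lipases *lipl-1* (24, 33 and 702) and *lipl-3* (91, 66 and 1617) also rose. Both are known for their induction on fasting. The 2 genes higher in larvae were *ech-9*, at 129, 131 and 9 counts, and the peroxisomal oxidase *acox-1.1*, at 3545, 2833 and 1481. *acox-1.1* was under 4-fold with DESeq2 (-1.96) or total-count scaling (-1.82). Of 24 genes for fatty acid synthesis, desaturation and elongation, 4 were higher in adults (*hacd-1*, *elo-4*, *elo-7* and *elo-8*) and 0 in larvae. The adult share, 16.7%, was also below that of all genes.

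Protein synthesis and turnover differed in small steps. Of 78 cytosolic ribosomal protein genes tested (79 in the table), 73 had a log2 fold change below 0, with a median of -0.90, but 75 were not called. They took 14.6% and 13.6% of larval counts and 9.33% of adult counts. A pair of paralogs stood out: *rpl-11.1* went from 600 and 500 counts to 21273 (4.26, SE 0.119, edgeR adjusted p = 2.38e-19), whereas *rpl-11.2* went from 30281 and 25304 to 13856 (-2.01). *rpl-11.2* lost its call under 8 alternatives, with the smallest change being -1.72. The third called gene was *rpl-25.1*, at 19110, 15196 and 7571 counts (-2.19). In ribosome biogenesis, *fib-1*, the fibrillarin that marks the nucleolus, rose from 870 and 897 counts to 7946 (2.15, SE 0.107), as did the RNA polymerase I subunit *rpoa-2* (332, 328 and 3080) and *wdr-12* (261, 258 and 2220). *nog-1*, a GTP-binding protein of the nucleolus, went from 36664 and 36732 to 10684 (-2.80), so 3 of 22 genes were higher in adults and 1 in larvae. Both shares, 13.6% and 4.55%, were below the 22.3% and 18.3% of all genes. All 33 proteasome genes had a log2 fold change above 0, with a narrow range of 0.25 to 2.40 and a median of 1.53. Only 7 were called, 21.2% against 22.3% of all genes. The lid subunit *rpn-9* led with 421, 371 and 4233 counts.

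Transcripts of the mitochondrial genome were likewise above 0. All 12 genes were above 0 (median 1.43), and 2 were called higher in adults, 16.7% against 22.3% of all genes. *COX3*, a cytochrome oxidase subunit, went from 17957 and 15700 counts to 171176 (2.33, SE 0.142), and *ND6*, a complex I subunit, from 123 and 128 to 5237 (4.36). *COX1* was at 51040, 44798 and 332821 counts (1.78, not called, 2.08 with total-count scaling), and *ATP6* at 4561, 4373 and 12946 (0.52). Together they took 0.872% to 0.919% of larval counts and 3.57% of adult counts.

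In the neuronal lists more genes were higher in larvae than in adults. Of 57 synaptic and pan-neuronal genes, 37 were higher in larvae and 2 in adults, with a median of -2.41. The vesicular acetylcholine transporter *unc-17* was at 854, 851 and 85 counts (-4.31, SE 0.172, edgeR adjusted p = 1.32e-16), the choline transporter *cho-1* at 587, 549 and 80, and the neuronal calcium channel *unc-2* at 5791, 5662 and 556. The vesicular glutamate transporter *eat-4* (512, 470 and 124) and the GABA transporter *unc-47* (186, 164 and 51) also fell, by 2.98 and 2.75 on the log2 scale. The proprotein convertase *egl-3*, which matures neuropeptides, was the most abundant at 28669, 28404 and 4273 counts. Other members were not called. The GABA-making enzyme *unc-25* was at 1061, 1060 and 601 counts (-1.83), the syntaxin *unc-64* was at 1657, 1640 and 1646 (-1.02) and the synaptobrevin *snb-1* at 911, 898 and 786 (-1.22).

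The 2 exceptions make octopamine. *tbh-1*, the tyramine beta-hydroxylase, was at 66, 64 and 6582 counts, from 5.59 ± 0.184 CPM (SD, n = 2) to 280 CPM (5.63, SE 0.143, edgeR adjusted p = 4.48e-20). *tdc-1*, the tyrosine decarboxylase that acts before it, was at 254, 217 and 5137 counts (3.43, SE 0.114). Both enzymes are known from gonadal sheath cells as well as from neurons.

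All 30 FMRFamide-like neuropeptide genes tested (31 in the table) were lower in adults, between -3.38 and -0.63, and 13 were called. *flp-21*, a ligand of the receptor NPR-1, was at 815, 762 and 151 counts and *flp-26* at 718, 642 and 135. Of 68 nlp and related neuropeptide genes (76 in the table), 33 were higher in larvae and 3 in adults (median -1.90). *nlp-49* was at 2406, 1995 and 281 counts (-3.97). The 3 higher in adults were *nlp-28* (57, 66 and 1515 counts, 3.59, SE 0.163), *nlp-30* and *nlp-4*. *nlp-28* and *nlp-30* belong to a cluster of epidermal antimicrobial peptide genes.

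Sensory cilia and receptors showed the lowest medians. Of 56 genes for ciliated neurons and intraflagellar transport, 40 were higher in larvae and 0 in adults (median -2.61). The Bardet-Biedl gene *bbs-8* was at 310, 296 and 34 counts, the transport protein *osm-5* at 387, 359 and 53, and the TRPV channel *osm-9* at 350, 292 and 44. Of 1303 chemoreceptor genes, 107 passed the count minimum, many of them through the larval libraries. Their median is therefore partly set by that minimum and does not describe the family. Of these, 78 were higher in larvae, 2 in adults and 27 were not called (median -2.91). The diacetyl receptor *odr-10* was at 944, 808 and 114 counts (-3.93, SE 0.166) and *srr-4* at 1501, 1387 and 138 (-4.38). The 2 higher in adults were *srg-46* (2, 1 and 169 counts) and *sri-40* (16, 12 and 360), named after their values were seen.

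Muscle genes that were called were likewise nearly all higher in larvae. Of 38 body wall muscle genes, 15 were higher in larvae, 0 in adults and 23 were not called (median -1.73). The myosin heavy chain *unc-54* (chromosome I, 14855901 to 14863482, minus strand), one of the most counted genes of larvae, went from 164960 and 176473 counts to 22102 (-3.97, SE 0.152, edgeR adjusted p = 7.06e-17). *myo-3*, the myosin at the center of the thick filament, was at 24543, 24470 and 3716, the paramyosin *unc-15* at 47748, 47391 and 9494, and the vinculin *deb-1* of the attachment plaque at 7610, 7462 and 1351. These 38 genes together fell from 3.66% and 3.97% of counts to 0.809%. The troponin I *unc-27*, among the 3 members above 0, was at 1938, 1922 and 4396 counts (0.17, SE 0.104) and did not differ beyond the test. In the pharynx, the feeding organ, 20 of 32 genes tested (42 in the table) were higher in larvae and 1, *idpp-1*, in adults (median -2.21). The pharyngeal myosins *myo-2* (36120, 42564 and 4182 counts) and *myo-1* (33929, 38627 and 4691) fell by 4.25 and 3.97 on the log2 scale. The gland gene *phat-5* was at 530, 522 and 59 counts.

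Of 39 intestinal genes, 7 were higher in larvae and 4 in adults (median -0.67), a larval share of 17.9%, close to that of all genes. The 4 were the cathepsin B-like proteases *cpr-5* (208, 289 and 9701 counts, 4.26, SE 0.137), *cpr-4* (1098, 920 and 24256, 3.58) and *cpr-1* (7115, 7783 and 74457, 2.30), and the lysozyme *lys-4* (338, 295 and 8953, 3.81). Among the 7, the intermediate filament *ifb-2* was at 31173, 31529 and 7514 counts (-3.08, SE 0.134) and *ifo-1*, which organizes it, at 4844, 4529 and 1279. The proteases *cpr-2* (2124, 3023 and 833) and *asp-6* (178856, 177156 and 73992) were also higher in larvae, *asp-6* not with total-count scaling (-1.98). The GATA factor *elt-2*, which defines the tissue, was at 731, 676 and 735 counts (-0.95), and the gut esterase *ges-1* at 1110, 1021 and 1866 (-0.20), and neither was called.

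Epidermal genes gave 7 of 29 higher in larvae and 2, *dpy-7* and *wrt-10*, in adults (median -1.09). The larval share was 24.1%, against 18.3% of all genes, and the adult share 6.90%, against 22.3%. Of the larval calls, *ajm-1* (-2.04) and *dlg-1* (-2.08) lay at the 4-fold line and lost their calls under 8 and 4 alternatives. The nuclear receptor *nhr-25* was at 811, 798 and 58 counts, from 69.2 ± 2.99 CPM (SD, n = 2) to 2.47 CPM (-4.77, SE 0.183, edgeR adjusted p = 6.40e-17). The GATA factors *elt-1* and *elt-3* were at -1.09 and -1.01 and were not called. The list for the spermatheca, gonadal sheath, uterus and vulva held 9 genes higher in adults and 10 in larvae, of 36. The innexins of the sheath and germ cells led the adult side: *inx-8* was at 9, 6 and 3620 counts (7.75, SE 0.192), *inx-9* at 8, 2 and 881, *inx-22* at 38, 23 and 2121, *inx-21* at 15, 28 and 1224 and *inx-14* at 80, 65 and 2393. These form the gap junctions between soma and germ line. The largest fall on the larval side was *unc-54* (-3.97), already counted above under body wall muscle. The larval side also included the phospholipase *plc-1* (3183, 2938 and 756) and the POU homeobox gene *ceh-18* (753, 701 and 300), known from the gonadal sheath. With total-count scaling *ceh-18* was under 4-fold (-1.99).

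Zygotic genes of the embryo were scarce, in that 23 of 56 passed the count minimum. Of these, 10 were higher in adults and 3 in larvae. The caudal homolog *pal-1*, whose mRNA oocytes carry, was at 167, 134 and 2176 counts (2.84, SE 0.132) and *sdz-27* at 89, 71 and 2081. The early zygotic gene *pes-10* was at 2, 3 and 46 counts. The 3 higher in larvae were *sdz-8* (429, 319 and 82), *med-2* (39, 43 and 1) and *sdz-35* (29, 50 and 0). *med-2* is a near-copy of *med-1*, which held 1, 0 and 0 counts, and with only unique alignments counted the levels of both are uncertain. The ratio of larval to adult *med-2* was 82.8, with a 95% exact interval of 14.4 to 3308. Among 15 Hox and Wnt patterning genes, 3 were higher in larvae (*egl-20*, *egl-5* and *cwn-2*) and 1 in adults, the Wnt ligand *mom-2*, which oocytes supply, at 49, 26 and 1675 counts (4.44, SE 0.197). These shares were 20% and 6.67%, against 18.3% and 22.3% of all genes. *cwn-2* (-2.07) lay at the 4-fold line and lost its call under 6 alternatives.

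Histone variants changed in both directions. Of 27 histone and linker histone genes tested, among 84 in the table, 12 were higher in adults and 4 in larvae (median 1.78). Most replication-dependent histone mRNAs lack a poly(A) tail and come from near-identical copies, so this list is measured only in part. The centromeric histone genes *hcp-3* (59, 60 and 1598 counts, 3.71) and *cpar-1* (13, 22 and 1177, 4.99) and the linker histone genes *hil-4* (124, 113 and 3511) and *hil-5* (173, 168 and 3746) were higher in adults. The histone H3.3 gene *his-71* (1973, 1750 and 655, -2.52) and the linker histone genes *his-24* (1740, 1703 and 564), *hil-3* (1487, 1494 and 307) and *hil-7* were higher in larvae.

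In the microRNA pathway, 6 of 22 genes were higher in adults and 2 in larvae (median 0.15). The shares were 27.3% and 9.09%, against 22.3% and 18.3% of all genes. The nuclease *drsh-1*, which cuts primary microRNAs, was at 133, 121 and 3619 counts (3.81, SE 0.123, edgeR adjusted p = 3.60e-18) and its partner *pash-1* at 66, 75 and 1469 (3.35). Of the Argonautes, *alg-5*, which is known from the germ line, went from 78 and 84 counts to 3346 (4.34, SE 0.143), whereas *alg-1* fell as given above, and *alg-2* was at 662, 656 and 486 counts (-1.45) and was not called. The P-body helicase *cgh-1* was at 657, 659 and 11025 counts (3.05). The second gene higher in larvae was the exportin *xpo-1*, at 13007, 13372 and 5341. Of 9 X chromosome dosage compensation genes tested (11 in the table), 0 were called. They ran from *sdc-2*, the hermaphrodite-specific switch (1055, 1078 and 560 counts, -1.94, SE 0.127), to *dpy-26* (1123, 1076 and 4507, 1.02), a condensin subunit shared with meiosis and mitosis.

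Of 323 innate immunity effectors, 173 were tested, with 39 higher in adults (22.5%, against 22.3% of all genes) and 38 in larvae (21.97%, against 18.3%). The invertebrate lysozyme *ilys-3* was at 3, 7 and 6730 counts (9.16, SE 0.217) and the C-type lectin *clec-222* at 0, 0 and 524, at least 173-fold higher in adults. On the other side, *clec-17* was at 4373, 4361 and 227 counts (-5.27, SE 0.149), *clec-72* at 2507, 2284 and 208, and *clec-68* at 356, 254 and 0, at least 205-fold higher in larvae. *dod-24* was at 806, 669 and 94 counts (-3.96) but gave -0.67 between the mutant stages, where it was not called. Of 8 dod genes tested, 5 were higher in larvae and 2, *dod-23* (0, 1 and 428 counts) and *dod-18* (37, 15 and 761), in adults. *dod-22*, at 296, 220 and 116 counts (-2.15), was 1.14 between the mutant stages, the opposite sign. Among 158 detoxification genes tested (185 in the table), 24 were higher in adults (15.2%, against 22.3% of all genes) and 33 in larvae (20.9%, against 18.3%). The cytochrome P450 genes *cyp-31A2* (12, 9 and 2575 counts) and *cyp-31A3* (23, 26 and 1726), which act in eggshell formation and are close copies, rose. The glutathione S-transferases *gst-35* (931, 636 and 24, -5.94), *gst-5* (3380, 3000 and 557) and *gst-20* (2298, 2058 and 488) and the cytochrome P450 *cyp-13A10* (273, 222 and 18) fell.

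Of 68 chaperone genes (72 in the table), 13 were higher in adults and 6 in larvae. These shares, 19.1% and 8.82%, were below the 22.3% and 18.3% of all genes. The J-domain genes *dnj-26* (21, 33 and 1248 counts) and *dnj-22* (229, 205 and 4411) rose, and *hsp-110* (14929, 14055 and 4840, -2.60) and *hsp-12.2* (2206, 2070 and 618) fell. *hsp-110* gave -0.94 between the mutant stages and was not called there. Nuclear hormone receptors leaned one way, with 48 of 191 tested (273 in the table) higher in larvae and 2, *nhr-2* and *nhr-181*, in adults (median -1.25). *nhr-6*, the NR4A homolog, was at 844, 773 and 55 counts (-4.85, SE 0.224) and *nhr-1* at 1639, 1521 and 257 (-3.62). Transthyretin-like genes, small secreted proteins of nematodes, gave 6 higher in adults and 4 in larvae of 48 tested (58 in the table). Their shares, 12.5% and 8.33%, were also below those of all genes. *ttr-14* was at 0, 1 and 929 counts and *ttr-23* at 1205, 954 and 239. Of the larval calls, *ttr-18* (-2.03) and *ttr-43* (-2.08) lay at the 4-fold line and lost their calls under 7 and 3 alternatives.

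**Figure D4:**
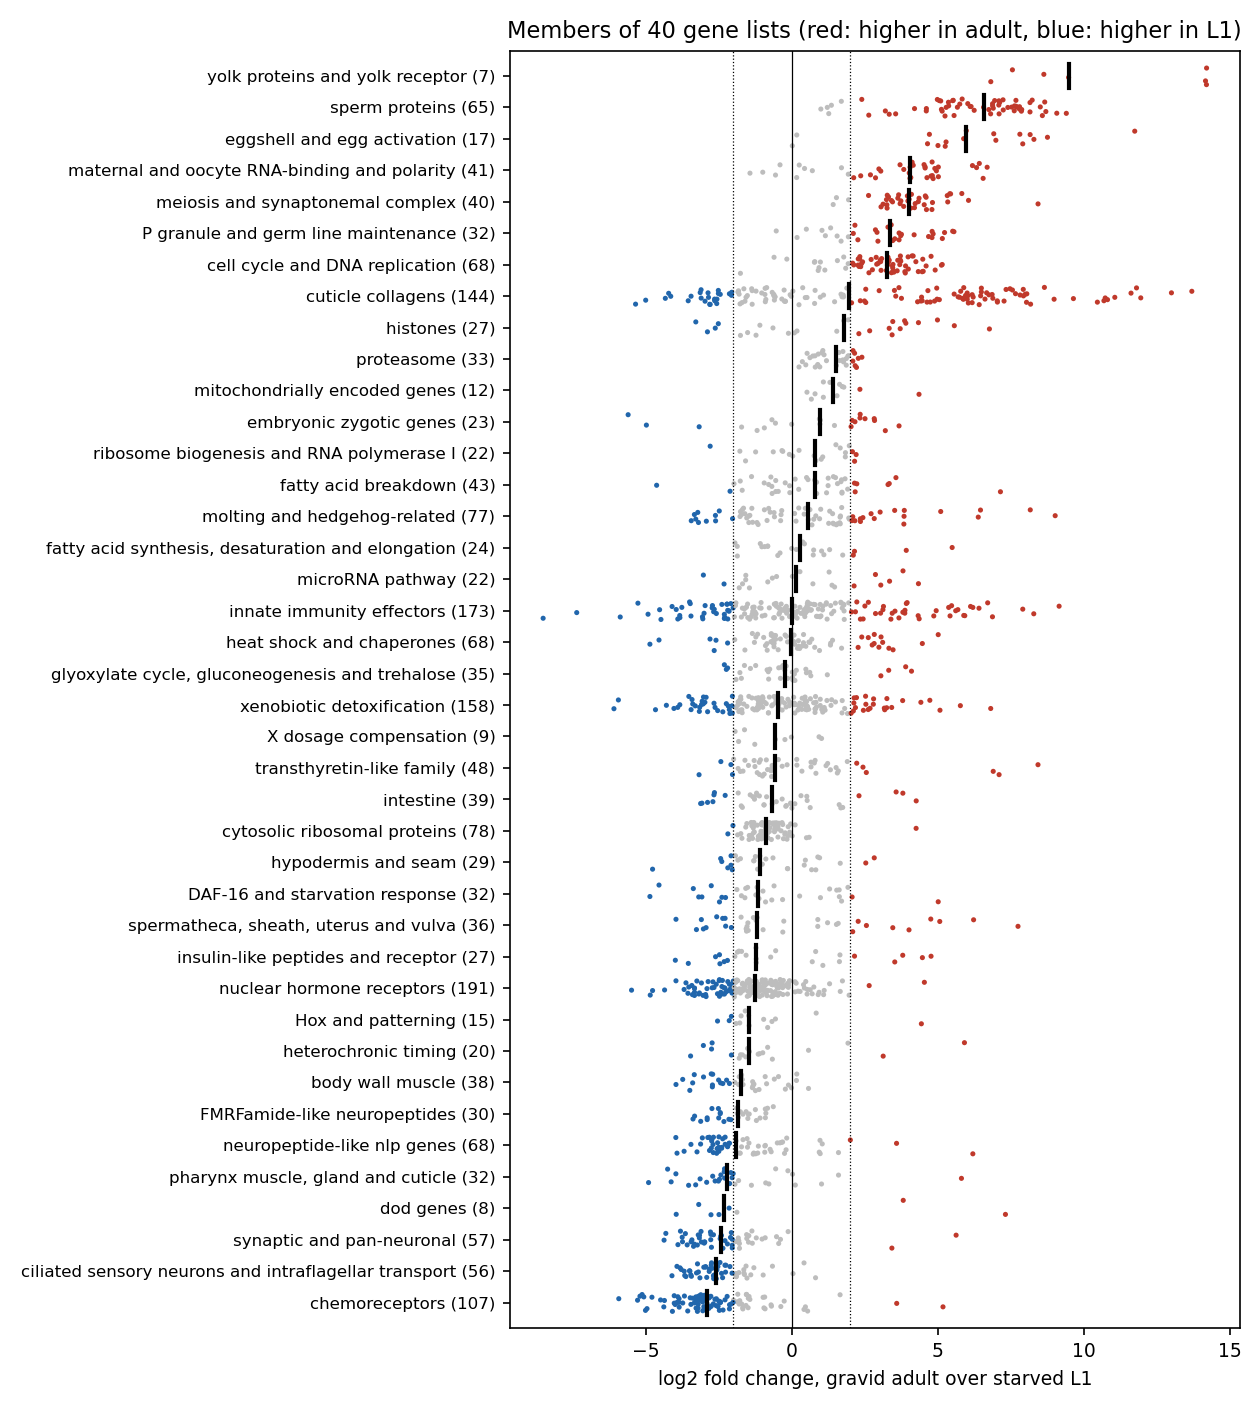
Log2 fold change, gravid adult over starved L1, of the members of 40 gene lists, with the number of members tested in brackets. Each point is a gene (red higher in adults, blue higher in larvae, gray not called), the thick bar is the list's median, and dotted lines mark 4-fold. Medians run from 9.48 for yolk genes to -2.91 for chemoreceptors, of which only 107 of 1303 passed the count minimum.

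Genes were also grouped by the letters of their symbols, without regard to the lists. Shares are over the genes past the count minimum, which a gene high at 1 stage can pass through that stage alone. The ranks are therefore partly set by that minimum and do not describe whole families. All genes tested gave 22.3% higher in adults and 18.3% in larvae. Of 135 families with at least 10 genes tested, those with the largest share higher in adults were msp (21 of 21), spe (14 of 22), him (6 of 11), grd (6 of 12), sdz (5 of 10), skr (9 of 18), col (58 of 125) and algn (6 of 13), which holds N-glycosylation enzymes and shares its rank with prp. The Skp1-related *skr-2*, a subunit of ubiquitin ligases, was at 81, 88 and 2247 counts and *algn-6*, a glucosyltransferase of N-glycan assembly, at 57, 50 and 929. The 8 families with the largest share higher in larvae were frpr (15 of 20), npr (32 of 43), srd (8 of 11), lgc (32 of 44), gcy (21 of 30), sup (7 of 10), srh (8 of 12) and glb (21 of 33). Apart from sup, whose symbol only says that a mutation suppresses another, these are neuropeptide receptors, chemoreceptors, ligand-gated channels, guanylyl cyclases and globins. The thermosensory cyclase *gcy-23* was at 285, 266 and 32 counts (-4.05, SE 0.252), the neuropeptide receptors *npr-34* at 300, 281 and 18 and *frpr-18* at 330, 222 and 55. The globin *glb-25* was at 286, 239 and 42 counts.

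The X chromosome stood apart from the autosomes. It is silenced through most of germ line development in *C. elegans*, and genes with germ line roles are sparse on it. Of 2069 X-linked genes tested, 170 were higher in adults (8.22%) and 633 in larvae (30.6%), with a median log2 fold change of -1.24. On the autosomes 3049 of 12340 genes were higher in adults (24.7%) and 1996 in larvae (16.18%), with a median of 0.31. Among autosomes, I had the largest share higher in adults (29.7%, against 11.9% in larvae) and V the smallest (18.3%, against 22.2%). Yolk genes were an exception to the pattern on X, since *vit-1* to *vit-5* all lie there.

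**Figure D5:**
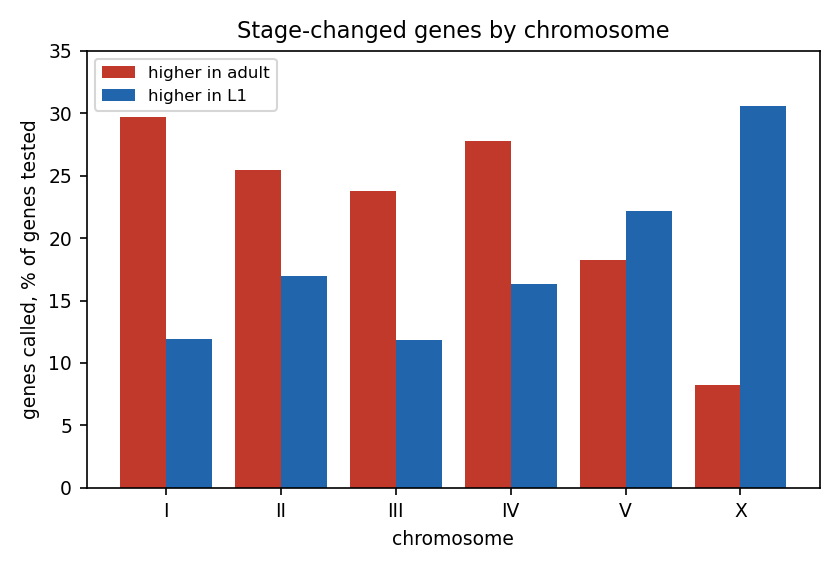
Share of the genes tested on each nuclear chromosome that were called higher in adults (red bars) or higher in larvae (blue bars), in percent. X has the smallest share higher in adults, 8.22%, and the largest share higher in larvae, 30.6%.

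Several of the largest differences lay outside every list. Of genes with at least 100 CPM in adults, *C44B7.5* (0, 0 and 13210 counts), *D1054.10* (0, 0 and 7558), *F17E9.4* (0, 0 and 7441), *ule-3* (0, 0 and 5966), *ZK813.1* (0, 0 and 4477) and *D1086.10* (0, 0 and 3674) were at 0 in both larval libraries, at least 4363-fold higher in adults for *C44B7.5* and at least 1213-fold for *D1086.10*. *ule-3* is named for a secreted protein of the uterine lumen. It lies next to *D1054.10* on chromosome V, at 10793798 to 10794924 and 10791975 to 10792875, on opposite strands. On the larval side, *T06C12.14* (chromosome V, 15899996 to 15901054, plus strand) was at 5613, 4246 and 0 counts, 421.7 ± 59.95 CPM in larvae (SD, n = 2), at least 3317-fold higher than in adults. In the mutant libraries it was at 1662 and 1559 counts in larvae and 0 in adults. Below it came *ZK896.5* (1594, 1445 and 39 counts, -6.24, SE 0.194), *pqn-75* (3100, 2585 and 107, -5.72, SE 0.160), *C18H7.1* (4041, 3428 and 147, -5.66, SE 0.160) and *Y41C4A.11* (1904, 1309 and 76, -5.38). *pqn-75* encodes a protein rich in glutamine and asparagine. In each of these 5 genes the larval libraries lay within a factor of 2 of each other, and the adult value was far below both.

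The genes with the most counts also changed. In larvae the highest were *eef-1A.1* (238748 and 220334 counts), the aspartic protease *asp-6*, *unc-54*, the mitochondrial ATP/ADP carrier *ant-1.1* (168653 and 163250) and the elongation factor *eef-2* (143340 and 130448). In adults they were *vit-6*, *vit-2* and *COX1*. *eef-1A.1* was at 157702 counts in adults (-1.55, SE 0.12) and *eef-2* at 91723 (-1.59), and neither was called, while *ant-1.1*, at 82916 counts, lay at the line (-2.02) and lost its call under 9 alternatives.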

How the data were processed

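The values the authors deposited are unscaled read counts, 1 column per library. As the study describes, 50 nt single-end reads of a stranded poly(A)+ kit were aligned with STAR 2.7.1a, unique alignments kept, and reads over annotated coding sequence counted on the reverse strand with featureCounts (annotation WS245, build WBcel235). UTR reads and reads shared by near-identical genes are thus not counted.

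Symbols and coordinates came from a WBcel235 annotation (20159 of 20447 genes with a position, 19620 with a symbol), and mitochondrial genes were matched by position. Genes with at least 50 counts over the 3 wild-type libraries were fitted with edgeR 4.0.16 (R 4.3.3), with TMM scaling and a two-sided quasi-likelihood test, over all 6 libraries in 4 groups, with Benjamini-Hochberg adjustment over 14521 genes and a prior count of 1. A call needed an adjusted p below 0.05 and 4-fold. Lists (40) were described by counts and medians and not tested. Members and lists were chosen with earlier results of these data known; 2 list definitions were corrected for genes of another kind after values were seen. Named genes were the stage and tissue markers, the 15 largest changes in each direction among called genes with 100 CPM, the 10 genes with the most counts per stage, leading called genes with 20 CPM (5 per direction) of each list, every member of lists with up to 12 genes, and up to 2 of each described family. Genes named outside this rule, to account for small counts of members, were chosen after their values were seen. Intervals are exact binomial at 95%. DESeq2 1.42.0, other scalings, filters, fold minima and left-out larval libraries were tried as alternatives.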

Additional observations from a re-analysis of the deposited data

Results flagged for a closer look

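*dod-22* was set apart because its stage difference had opposite signs in the 2 genotypes, with the adult library outside both larval libraries each time. The log2 fold change, adult over L1, was -2.15 in the wild type and 1.14 in *ebax-1(tm2321)* mutants, whose larvae and adult were also different strains. The mutant change was under 4-fold. The difference between the genotypes was not tested. An opposite sign was not particular to *dod-22*: 19 genes called higher in adults and 7 called higher in larvae had it between the mutant stages. In the wild type the adult library lay outside both larval libraries for 97.2% of all genes.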

How the results depend on the processing

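The number of genes higher in adults was 3231 and higher in larvae 2660. Without a fold minimum the numbers were 6401 and 6248, and at 2-fold 5079 and 4836. With DESeq2 they were 3352 and 2435, with DESeq2 size factors 3457 and 2407, and with total-count scaling 3711 and 2141. Leaving out 1 larval library gave 3217 to 3256 and 2652 to 2672. Scaling by total counts moved the median of all log2 fold changes from 0.028 to 0.32 and DESeq2 size factors moved it to 0.18. Of the 2660 genes higher in larvae, 80.5% stayed called with total-count scaling. Of 324 named genes, 18 lost their call with total-count scaling and 10 with DESeq2, all near 4-fold. Between the mutant stages 3092 genes were higher in adults and 2592 in larvae, and 26 named genes lost their call and 1, *dod-22*, turned from -2.15 to 1.14. The medians of 2 lists sat near 0 and changed sign with the setting: chaperones at -0.01 (0.29 with total-count scaling) and immunity effectors at 0.011 (-0.14 with filterByExpr). Those of the glyoxylate list (0.06 with total-count scaling), the microRNA pathway (-0.19 between the mutant stages) and transthyretin-like genes (0.075 with a minimum of 1 count) also turned. No paired analysis was possible because the wild-type larvae and the wild-type adult share fewer than 2 replicate numbers. With 1 adult library no spread between adult cultures was measured.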

Other observations

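The genes that differed most between the 2 larval libraries were a small set. Of the 80 genes with more than 2-fold between them, after the constant was added, 43 were higher in replicate 1 and 37 in replicate 2. Among these 80, 47 were called higher in adults and 1 higher in larvae, where all genes tested gave 22.3% and 18.3%. Ratios this large arise mainly at low larval counts, and such genes pass the count minimum mainly through the adult library. Much of the split therefore follows from how the 80 were selected. *hal-3* was at 6, 35 and 584 counts and *sir-2.3*, a mitochondrial sirtuin, at 33, 4 and 60. Of the wild-type calls, 88.5% of those higher in adults and 81.8% of those higher in larvae were also called between the *ebax-1(tm2321)* stages, and 19 and 7 genes had the opposite sign there. The *dod-22* counts were 96 and 68 in mutant larvae and 244 in the mutant adult, against 296, 220 and 116 in the wild type.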
